A study of Homo sapiens with 4 samples.

Results

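The interferon regulatory factors (IRFs) are a family of transcription factors that share an N-terminal DNA-binding domain and bind variants of the interferon-stimulated response element (ISRE). The 8 members described here, IRF1, IRF2, IRF3, IRF4, IRF5, IRF7, IRF8 and IRF9, were taken by gene symbol from the 56638 rows of the deposited count table. They were read in MV4;11, a long-established line of human monocytic acute myeloid leukaemia whose known drivers are the KMT2A-AFF1 fusion and an FLT3 internal tandem duplication. The cells were grown in RPMI and either given 1 µg/mL of the TLR1/TLR2 agonist CU-T12-9, a small molecule, or left as vehicle controls, and RNA was taken after 24 h. Each group held 2 libraries, and both came from the same parental line. The sample labels call the vehicle DMSO and the treatment protocol calls it PBS. The control libraries are called DMSO here, and an effect of the vehicle itself cannot be told apart from that of the agonist.

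Below Toll-like receptors, adaptors such as MyD88 and TICAM1 and kinases such as TBK1 and IKKε lead to phosphorylation of IRF3, IRF5 and IRF7. These factors then enter the nucleus and switch on interferon and cytokine genes. Secreted interferon acts back through its receptors, and IRF9 is the part of the complex ISGF3 that recognises ISREs. IRF4 and IRF8 bind DNA with partners such as PU.1 and direct the development of dendritic cells, monocytes and B cells. The activity of several IRFs is set after translation, and transcript counts do not measure it.

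Libraries held 23087102 to 25867733 counted reads, and 14018 genes were tested. Levels are CPM, that is reads scaled by TMM-adjusted library size, and a single read was worth 0.0384 to 0.0442 CPM. By the test described below, 32% of all tested genes were higher under CU-T12-9 and 33.2% lower. All 12 markers fixed for a myeloid blast line were read, FLT3, CD33, SPI1 and LYZ among them. Of these markers 7 were higher and 5 lower under CU-T12-9, with a median log2 fold change of 0.43. Their summed level was 2519 and 2649 CPM under CU-T12-9 and 3219 and 3135 CPM under DMSO, and LYZ alone, the largest part of it, averaged 1276 CPM under CU-T12-9 and 2002 CPM under DMSO. Of 19 markers of other cell types, 9 had no read in any library, CD3D, HBB, PECAM1 and EPCAM among them. Only KRT8, NCAM1 and NKG7 of that list had enough reads to be tested. NKG7, a granule membrane protein of cytotoxic cells, averaged 30.2 CPM under CU-T12-9 and 15.4 CPM under DMSO, and NCAM1 2.50 and 5.23 CPM. Whether these have a part in the results below was not tested. In bulk RNA, a change in how many cells hold a transcript and a change in its amount per cell cannot be told apart. The labels do not state separate cultures within a group, so p-values reflect the spread between these libraries only, and that spread may be technical.

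Under CU-T12-9, IRF7, IRF9, IRF2, IRF5 and IRF4 rose, IRF8 and IRF3 fell, and IRF1 did not pass the test. IRF7 and IRF9 rose about as much as each other, by 1.56 and 1.58 on the log2 scale, and no other member changed by more than 0.68. All 8 members passed the filter on low counts. Of these, 5 were higher and 2 lower by edgeR's quasi-likelihood test with Benjamini-Hochberg adjustment over all genes at a threshold of 0.05. Among all tested genes 65.2% were called, 32% higher and 33.2% lower, so a call alone did not set the family apart. The median absolute log2 fold change was 0.53 over the 8 members and 0.44 over all tested genes. For all 8 members both CU-T12-9 libraries lay on one side of both DMSO libraries, as they did for 82.3% of tested genes.

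**Figure D1:**
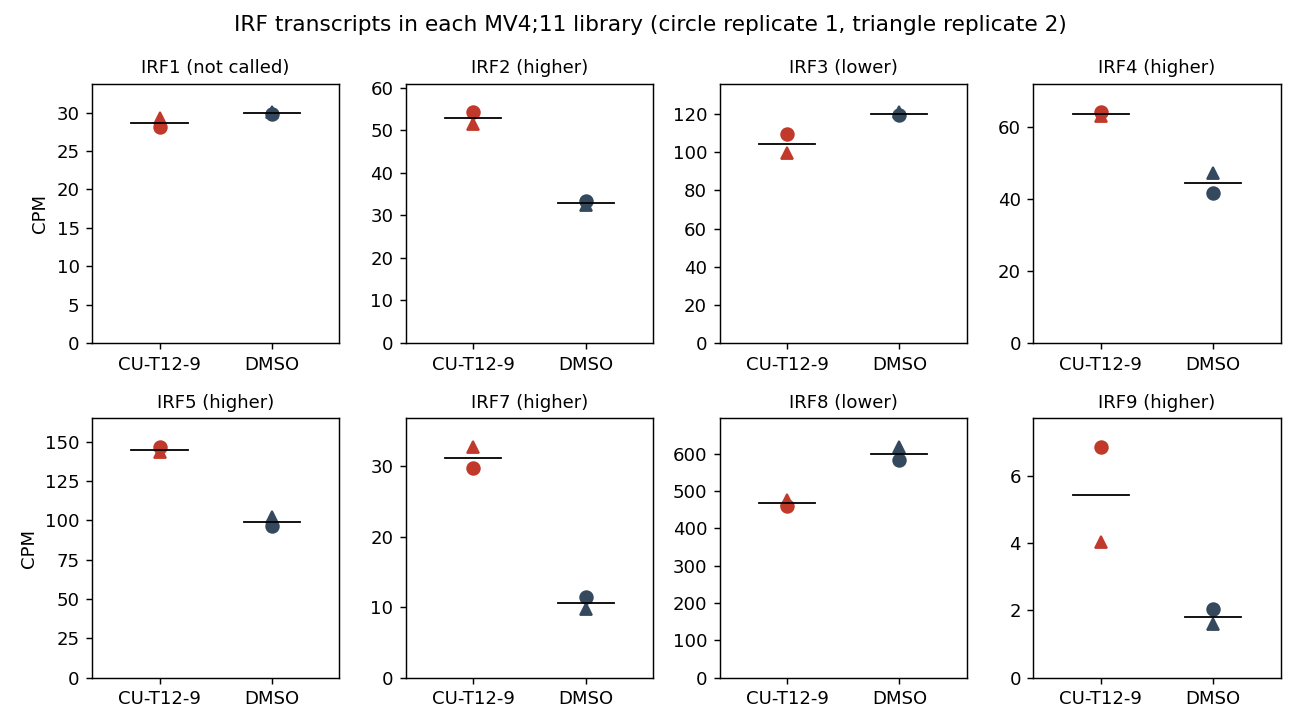
Level of each IRF gene in CPM in the 2 CU-T12-9 and the 2 DMSO libraries, with a line at the group mean and each axis starting at 0. IRF7 and IRF9 are about 3 times as high under CU-T12-9, IRF2, IRF4 and IRF5 stand above DMSO by less, IRF8 and IRF3 lie below it, and IRF1 is nearly level.

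The largest changes were those of IRF7 and IRF9. IRF7, which drives interferon-α genes and is itself an interferon-induced gene, had 694 and 739 reads under CU-T12-9 and 296 and 232 reads under DMSO. Scaled, this was 29.7 and 32.7 CPM against 11.4 and 9.69 CPM, and the groups did not overlap. The means were 31.2 ± 2.11 CPM under CU-T12-9 and 10.5 ± 1.18 CPM under DMSO (SD, n = 2 each), a log2 fold change of 1.56 (SE 0.10, 95% interval 1.33 to 1.79, edgeR adjusted p = 1.22e-06). In absolute size this change lay at percentile 89.0 of all tested genes. IRF7 was also the member that passed when the change was tested against a fold of 2 (edgeR adjusted p = 4.77e-04).

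IRF9, the DNA-binding subunit of ISGF3, was the least read member. It had 160 and 91 reads under CU-T12-9 and 53 and 38 reads under DMSO, or 6.84 and 4.02 CPM against 2.03 and 1.59 CPM. Both CU-T12-9 libraries were higher than both DMSO libraries, but they differed from each other 1.70-fold, and their exact 95% Poisson intervals of 136 to 187 and 73.3 to 112 reads did not overlap. These intervals cover counting error only. The log2 fold change was 1.58 (SE 0.28, 95% interval 0.94 to 2.21, edgeR adjusted p = 8.99e-04). It was 1.17 without the first CU-T12-9 library and 1.91 without the second, and the spread in such a fit, with 1 library left in a group, comes from the other group alone. Tested against a fold of 2, it did not pass (edgeR adjusted p = 0.0734). In the GENCODE 29 annotation the gene AL136295.5, on the same strand, overlaps 48.4% of the exonic bases of IRF9. That overlap is 1838 bases, as many as the principal transcript of IRF9 holds. The count table has no row named AL136295.5, and whether that gene was counted under another name is not known. The sources used here do not give how reads in such an overlap were assigned, so the level of IRF9 is uncertain.

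IRF3, the constitutive factor that with IRF7 starts interferon-β transcription, had 2558 and 2250 reads under CU-T12-9 and 3114 and 2896 reads under DMSO. The levels were 109 and 99.4 CPM under CU-T12-9 and 119.5 and 120.9 CPM under DMSO. Both treated libraries were lower, by little: the log2 fold change was -0.20 (SE 0.06, 95% interval -0.34 to -0.07, edgeR adjusted p = 0.014). Without the first DMSO library the log2 fold change was -0.22 (edgeR adjusted p = 0.0583) and without the second -0.21 (edgeR adjusted p = 0.0808), so the call was lost while the size stayed about the same. BCL2L12, a gene on the opposite strand, overlaps 19.3% of the exonic bases of IRF3 in GENCODE 29, and it fell by 0.77 on the log2 scale (SE 0.07). Without a stated strand setting, reads of the 2 genes cannot be told apart in that stretch. Within each library, IRF7 had 27.1 and 32.8 reads per 100 IRF3 reads under CU-T12-9 and 9.51 and 8.01 under DMSO, a ratio that does not depend on library scaling.

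IRF1 and IRF2 bind the same elements. IRF1 activates transcription and is induced by interferon-γ, and IRF2 was first described as its antagonist. IRF1 had 657 and 662 reads under CU-T12-9 and 776 and 719 reads under DMSO, which is 28.1 and 29.3 CPM against 29.8 and 30.0 CPM. The groups did not overlap but lay within 2 CPM of each other. The log2 fold change was -0.06 (SE 0.07, edgeR adjusted p = 0.47), with a 95% interval of -0.22 to 0.10, so a small change in either direction is not shut out. IRF1 shares 22.0% of its exonic bases in GENCODE 29 with C5orf56 on the opposite strand, which had 29 to 50 reads in a library.

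IRF2 had 1267 and 1165 reads under CU-T12-9 and 868 and 779 reads under DMSO. Its level was 52.8 ± 1.90 CPM under CU-T12-9 and 32.9 ± 0.560 CPM under DMSO (SD, n = 2 each), a log2 fold change of 0.68 (SE 0.06, edgeR adjusted p = 1.40e-05). Both treated libraries stood well above both controls. Per 100 IRF2 reads there were 51.9 and 56.8 IRF1 reads in the CU-T12-9 libraries and 89.4 and 92.3 in the DMSO libraries. That these ratios did not overlap between groups follows from the levels of IRF1 and IRF2 above and is not a further result.

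The upstream sequence of IRF1 is shown because it holds letters of the sites through which interferon-γ and NF-kB are known to act on this gene, while its transcript did not pass the test. That of IRF9 is shown because its transcript rose, and that of IRF4 because it rose with no searched motif in this window. Sequences are the 250 bases before the RefSeq gene start in GRCh38.p14, 5′ to 3′ on the strand of the gene. They are at chr5:132490774-132491023 on the minus strand for IRF1, chr14:24161015-24161264 on the plus strand for IRF9 and chr6:391502-391751 on the plus strand for IRF4. Capitals mark matches to a searched motif.
IRF1: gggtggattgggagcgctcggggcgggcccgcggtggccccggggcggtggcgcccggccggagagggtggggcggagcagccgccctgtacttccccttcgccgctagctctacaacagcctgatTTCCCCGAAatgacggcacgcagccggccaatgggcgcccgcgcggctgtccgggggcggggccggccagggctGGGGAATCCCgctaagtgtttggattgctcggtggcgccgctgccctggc
IRF9: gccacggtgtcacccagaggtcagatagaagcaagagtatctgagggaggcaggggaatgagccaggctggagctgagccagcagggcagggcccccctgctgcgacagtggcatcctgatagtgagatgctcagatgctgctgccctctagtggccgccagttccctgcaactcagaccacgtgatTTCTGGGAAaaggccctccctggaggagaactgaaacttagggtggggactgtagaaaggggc
IRF4: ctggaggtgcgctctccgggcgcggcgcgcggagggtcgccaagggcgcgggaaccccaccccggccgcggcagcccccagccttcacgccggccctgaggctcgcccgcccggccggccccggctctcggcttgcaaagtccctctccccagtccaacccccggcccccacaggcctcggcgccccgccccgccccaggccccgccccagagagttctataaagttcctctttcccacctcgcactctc

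Both strands were searched for the ISRE core (GAAA, any 2 bases, GAAA), the interferon-γ activated site (GAS) core TTCNNNGAA and the kB consensus. The IRF1 window held a GAS match, TTCCCCGAA, at bases -124 to -116 from the start and a kB match, GGGGAATCCC, at -50 to -41. The IRF9 window held a GAS match, TTCTGGGAA, at -63 to -55. The IRF4 window held none, and no match overlapped another. Among all 35116 RefSeq promoter entries the same 250-base window held an ISRE match in 3.02%, a GAS match in 6.57% and a kB match in 9.96%. The other entries found were 4 for IRF5 and 2 for IRF8, all at starts within the gene and with none of the 3 motifs. IRF2, IRF3 and IRF7 were not searched. A match describes letters and does not show a bound site, and no match says only that these letters are not in the window.

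IRF4 and IRF8, close relatives that both pair with PU.1, moved in opposite directions. IRF8, needed for monocytes and conventional type 1 dendritic cells, was the most read member and fell. It had 10765 and 10791 reads under CU-T12-9 and 15181 and 14795 reads under DMSO, or 460 and 477 CPM against 583 and 618 CPM. The groups did not overlap, and the log2 fold change was -0.36 (SE 0.05, 95% interval -0.47 to -0.24, edgeR adjusted p = 2.56e-04). IRF4, used by B cells, plasma cells and conventional type 2 dendritic cells, had 1500 and 1430 reads under CU-T12-9 and 1085 and 1133 reads under DMSO. Its level was 63.7 ± 0.668 CPM under CU-T12-9 and 44.5 ± 4.003 CPM under DMSO (SD, n = 2 each), a log2 fold change of 0.52 (SE 0.07, edgeR adjusted p = 1.83e-04). In each CU-T12-9 library there were 13.9 and 13.2 IRF4 reads per 100 IRF8 reads, against 7.15 and 7.66 in the DMSO libraries. That the groups did not overlap in this ratio follows from the levels of IRF4 and IRF8 above and is not a further result.

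IRF5, which MyD88 signalling activates and which promotes inflammatory cytokine genes in macrophages, had 3427 and 3242 reads under CU-T12-9 and 2506 and 2450 reads under DMSO. The level was 145 ± 2.31 CPM under CU-T12-9 and 99.3 ± 4.32 CPM under DMSO (SD, n = 2 each). Both treated libraries were higher, with a log2 fold change of 0.55 (SE 0.05, 95% interval 0.42 to 0.67, edgeR adjusted p = 2.08e-05). Its annotated pseudogene row, IRF5P1, had no read in any library.

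**Figure D2:**
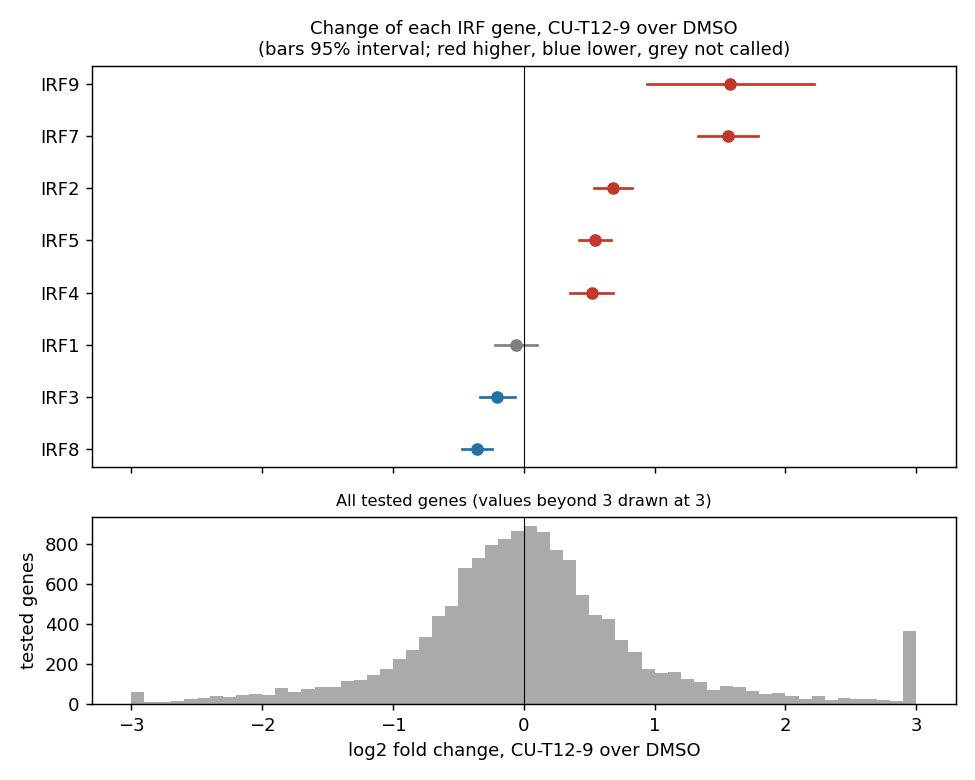
Log2 fold change of each IRF gene, CU-T12-9 over DMSO, with its 95% interval (upper panel), above the distribution of the same quantity over 14018 tested genes (lower panel). IRF9 and IRF7 stand at 1.58 and 1.56, 3 members between 0.52 and 0.68, IRF1 at -0.06 with an interval across 0, and IRF3 and IRF8 below 0.

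To compare levels between genes, CPM was divided by the length in kb of the longest principal transcript of each gene in GENCODE 29. On this per-length scale IRF8 led in both groups, at 154.7 ± 3.87 CPM per kb under CU-T12-9 and 198 ± 8.18 CPM per kb under DMSO (SD, n = 2 each). IRF3 followed at 60.0 ± 4.04 CPM per kb under CU-T12-9 and 69.1 ± 0.565 under DMSO. IRF5 came next at 52.0 ± 0.828 CPM per kb under CU-T12-9 and 35.6 ± 1.55 under DMSO.

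The remaining members lay far below. IRF2 stood at 22.9 CPM per kb under CU-T12-9 and 14.3 under DMSO. IRF7 stood at 15.2 under CU-T12-9 and 5.13 under DMSO, so that it passed above IRF4 (11.9 and 8.34) and IRF1 (8.01 and 8.36) in the treated libraries, having been below both under DMSO. IRF4 and IRF1 did not differ beyond their spread under DMSO. IRF9 was lowest, at 2.96 CPM per kb under CU-T12-9 and 0.985 under DMSO. The order depends on the length used. Over all annotated exonic bases, which for IRF1 are 7799 bases against 3579 in the principal transcript, IRF5 stood above IRF3 under CU-T12-9 (33.1 and 27.5 CPM per kb). On that scale IRF1 and IRF7 did not differ beyond their spread under DMSO (3.835 and 4.005 CPM per kb).

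As shares of the summed per-length level within a library, IRF8 made up 46.2% and 48.2% under CU-T12-9 and 57.8% and 58.75% under DMSO. The share of IRF5 was 16.0% and 15.7% under CU-T12-9 and 10.4% and 10.6% under DMSO, and that of IRF7 was 4.40% and 4.88% under CU-T12-9 and 1.67% and 1.36% under DMSO. In CPM, not divided by length, the 8 members summed to 899 and 900.3 under CU-T12-9 and 917 and 962 under DMSO.

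**Figure D3:**
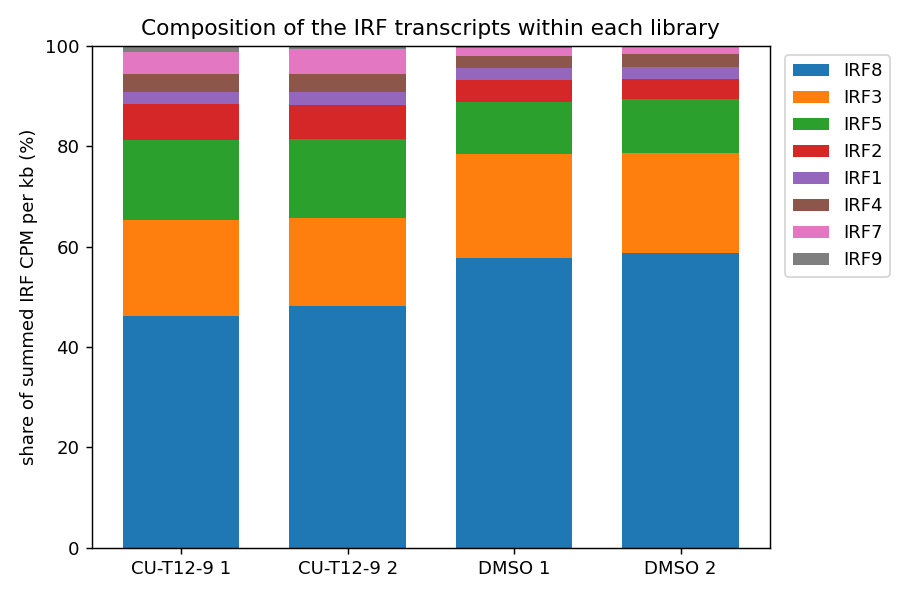
Share of each IRF gene in the summed CPM per kb of the 8 members, as a percentage, in the 2 CU-T12-9 and the 2 DMSO libraries. The bottom block, IRF8, is smaller in both CU-T12-9 libraries, at 46.2% and 48.2%, than in the DMSO libraries, at 57.8% and 58.75%.

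The genes around the family were read from lists of pathway members. Of 21 interferon ligand genes, type I, II and III, 18 had no read in any library. IFNB1 had 2 and 0 reads under CU-T12-9 and none under DMSO, and IFNL1 had 1 and 0 under CU-T12-9 and none under DMSO. IFNA5 had 1 read in a DMSO library and none under CU-T12-9. A count of 0 allows up to 3 reads, or 0.115 to 0.133 CPM. No ligand passed that floor in any library at 24 h, the only time sampled. Interferon-α genes are near-identical, and reads mapping to several of them may not have been counted.

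Of 19 tested genes upstream of the IRFs (21 listed), 12 were higher and 3 lower. Over all tested genes 32% were called higher and 33.2% lower. The median log2 fold change was 0.43 in the list, against 0.00097 over all tested genes. TLR8, an endosomal receptor for single-stranded RNA, had 125 and 128 reads under CU-T12-9 and 0 and 1 under DMSO, a ratio of 275 with an exact 95% interval of 48.9 to 10900. This and the other exact intervals of read ratios cover counting error only and not the spread between libraries. TLR8 passed the filter on low counts only through its treated libraries. IFIH1, which encodes the RNA sensor MDA5, rose to 54.3 ± 2.43 CPM under CU-T12-9, against 8.31 ± 0.354 CPM under DMSO (SD, n = 2 each). The sensor gene RIGI, listed as DDX58, and the TLR3 and TLR4 adaptor TICAM1 rose by 1.19 and 1.13 on the log2 scale. The kinase genes IKBKE and TBK1 rose by 0.69 and 0.19, while IRAK1, STING1 (listed as TMEM173) and SLC15A4 fell by 0.99, 0.44 and 0.41. SLC15A4 recruits TASL, the adaptor that activates IRF5 at endolysosomes, and TASL (listed as CXorf21) did not pass the test at 0.12 (edgeR adjusted p = 0.0566).

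Of 11 genes for interferon receptors and the JAK kinases and STAT factors below them, 9 were higher and 0 lower. The median log2 fold change was 0.98, where 32% of all tested genes were called higher and 33.2% lower. STAT2, a partner of IRF9, rose by 1.89 on the log2 scale. It had 164 ± 17.7 CPM under CU-T12-9 and 44.2 ± 3.79 CPM under DMSO (SD, n = 2 each). The interferon-γ receptor chain IFNGR2 rose by 1.74 and the kinase JAK2 by 1.04, while IFNAR2 stood at 0.01 (SE 0.05) and did not pass.

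All 12 DNA-binding partners listed for IRF4 and IRF8 changed, 8 up and 4 down, with a median of 0.76, where 65.2% of all tested genes were called. SPI1, which encodes PU.1, rose to 279 ± 27.0 CPM under CU-T12-9, against 181 ± 1.66 CPM under DMSO (SD, n = 2 each), and its relative SPIB rose by 3.12 on the log2 scale. SPIB had 448 and 465 reads under CU-T12-9 and 67 and 47 under DMSO. The lymphoid factor IKZF3 rose by 2.85 from 7 reads over both DMSO libraries, and BATF2 by 2.18. IKZF3 passed the filter on low counts only through its treated libraries. BATF3, the partner of IRF8 in type 1 dendritic cells, fell by 1.95, with 17 and 8 reads under CU-T12-9 and 45 and 60 under DMSO. It passed the filter through its DMSO libraries, so the calls of IKZF3 and BATF3 add little to the counts of this list. BATF, TCF3 and JUND fell by 0.46, 0.55 and 0.20.

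Among 15 cofactors and brakes, 10 rose and 2 fell, with a median of 0.28, where 65.2% of all tested genes were called. USP18, the protease that removes ISG15 and dampens the interferon receptor, rose by 1.87 on the log2 scale, and SOCS3, an inhibitor of JAK signalling, by 1.62. The acetyltransferase genes CREBBP and EP300 rose by 0.83 and 0.67. The IRF2 binding proteins parted: IRF2BP2 rose by 0.70, IRF2BP1 fell by 0.59, and IRF2BPL did not pass at 0.15 (edgeR adjusted p = 0.331). SOCS1 had 48 and 81 reads under CU-T12-9 and 60 and 42 under DMSO, and these ranges overlapped.

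**Figure D4:**
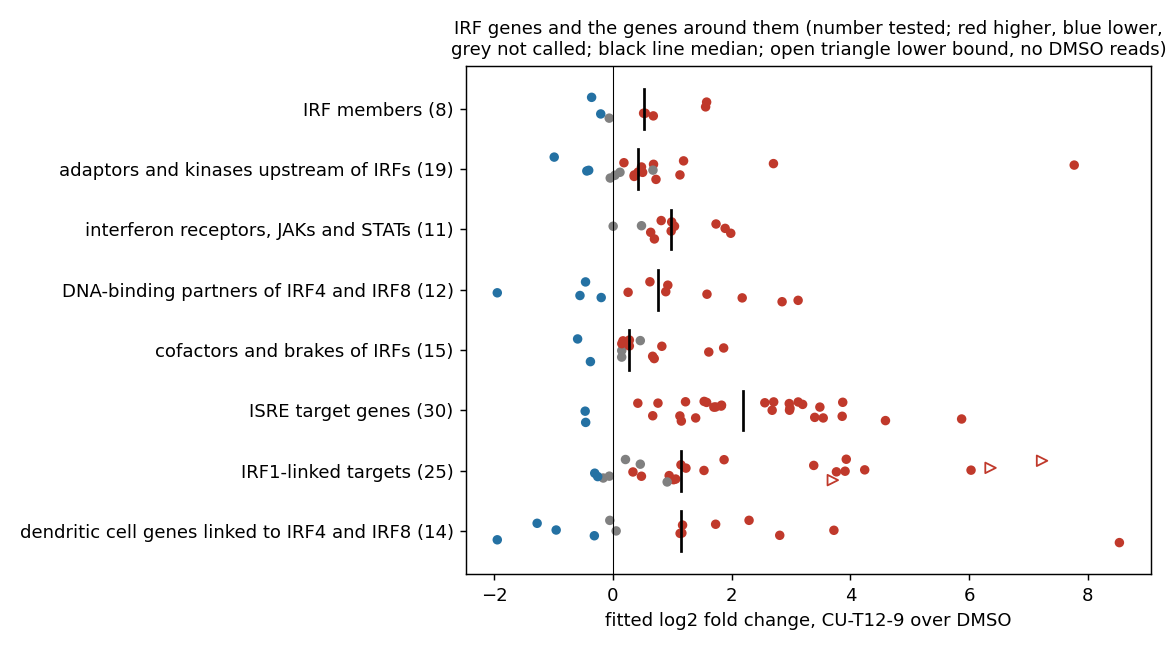
Log2 fold change, CU-T12-9 over DMSO, of the tested genes of each list, by row, with the median as a black line and open triangles at the lower bound of genes with no DMSO reads. The IRF genes lie between -0.36 and 1.58, and the ISRE targets reach further to the right with a median of 2.20. Some listed genes with few DMSO reads passed the filter only through their treated libraries, which can pull a median to the right.

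Of 30 genes with ISREs that respond to interferon, 28 were higher and 2 lower, and the median log2 fold change was 2.20. Over all tested genes 32% were called higher and 33.2% lower. Some genes of this list with few DMSO reads, OAS3 and IFIT5 among them, passed the filter only through their treated libraries. The count of 28 and the median therefore lean towards rises. The largest changes were in the antiviral genes OAS3, IFI44L and MX1, at 5.87, 4.59 and 3.87 on the log2 scale, and in IFIT5, with 30 reads over both CU-T12-9 libraries and 2 over both DMSO libraries, a ratio of 16.3 (exact 95% interval 4.14 to 141). IFITM1, a membrane protein that restricts viral entry, had 180 ± 6.03 CPM under CU-T12-9 and 27.5 ± 2.06 CPM under DMSO (SD, n = 2 each). IFI6, a mitochondrial interferon-induced protein, and XAF1, a pro-apoptotic one, rose by 2.97 and 1.83 on the log2 scale. BST2, the tether that holds virions on the cell, went against the list and fell by 0.47, with 2755 and 2824 reads under CU-T12-9 and 4240 and 4126 under DMSO. The other gene that fell was HERC5, the ligase for ISG15, at -0.46.

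IRF1 itself was level. Over all tested genes 32% were called higher and 33.2% lower. Of 25 tested genes linked to IRF1 (30 listed), 18 were higher and 2 lower, and the median log2 fold change was 1.15. Genes with almost no DMSO reads passed the filter only through their treated libraries, so this count and median lean towards rises. VCAM1, an adhesion molecule, had 196 and 218 reads under CU-T12-9 and none under DMSO. It was at least 150-fold higher, against a floor of 3 reads over both DMSO libraries. By the same floor the chemokine genes CXCL10 and CXCL9 were at least 82.2-fold and 13.0-fold higher. IL12B, a subunit of interleukin-12, had 136 reads over both CU-T12-9 libraries and 2 over both DMSO libraries, a ratio of 73.9 (exact 95% interval 20.1 to 616). The GTPase genes GBP5 and GBP4 rose by 4.24 and 3.38. Of the 3 immunoproteasome subunits on the list, 2 fell. PSMB8 had 46.9 ± 0.258 CPM under CU-T12-9 and 58.0 ± 1.44 CPM under DMSO (SD, n = 2 each), a log2 fold change of -0.30 (SE 0.06, edgeR adjusted p = 0.00147). PSMB10 fell by 0.25, and PSMB9 did not pass at -0.16 (edgeR adjusted p = 0.283). NLRC5, the activator of class I genes, did not pass either at -0.06 (edgeR adjusted p = 0.574), while its class II counterpart CIITA rose to 220 ± 19.1 CPM under CU-T12-9, against 14.6 ± 0.941 CPM under DMSO (SD, n = 2 each).

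Genes linked to IRF4 or IRF8 in dendritic cells split. Of 14 tested (20 listed), 8 rose and 4 fell, with a median of 1.15, where 32% of all tested genes were called higher and 33.2% lower. CCR7 and CCL22, with few DMSO reads, passed the filter through their treated libraries, so this count and median also lean towards rises. BATF3, counted here too among the falls, passed it through its DMSO libraries. CCR7, the receptor that guides mature dendritic cells to lymph nodes, had 373 and 396 reads under CU-T12-9 and 1 and 1 under DMSO, a ratio of 418 (exact 95% interval 115 to 3456), and the chemokine gene CCL22 rose by 3.72 on the log2 scale. PRDM1, a known IRF4 target that encodes BLIMP1, had 726 and 713 reads under CU-T12-9 and 90 and 132 under DMSO, and rose by 2.81 on the log2 scale. ZBTB46, a factor of conventional dendritic cells, rose by 2.29, TCF4 by 1.73 and CLEC10A by 1.16. The defining type 1 genes CLEC9A and XCR1 had no read in any library, and TLR3 had 2 reads in all. CADM1 and ID2 of the same list were read in every library and did not pass the test, at -0.05 and 0.06. Beside BATF3, FCER1A fell by 1.27, KLF4 by 0.95 and FLT3 by 0.31.

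For IRF7 and IRF9, the members that changed most, genes with the closest pattern were sought among 9612 genes whose mean reached 5 CPM. The measure was the Euclidean distance between log2 CPM values centred on each gene's mean over the 4 libraries. For IRF7 these were SMAD7, SLC35D2 and VSIG10L, at distances of 0.0472, 0.0639 and 0.0931. For IRF9 they were PPP2R5B, NFAT5 and AMY2B, farther off at 0.393, 0.399 and 0.412. With 2 libraries a group such likeness is mostly a like fold change.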

How the data were processed

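The 4 libraries came as 1 deposited matrix of raw counts by gene symbol. The submitters' processing notes name FastQC 0.11.7, TopHat2, featureCounts 1.5.2 and the build GRCh37. The sources used here do not give the annotation, the strand setting or the handling of multimapping reads, so overlapping genes can share or lose reads. Counts were analysed in R 4.3.3 with edgeR 4.0.16 (quasi-likelihood F-test, a design of group alone, filterByExpr, TMM, Benjamini-Hochberg adjustment over 14018 genes, threshold 0.05). Adjusted p-values are from that test unless another is named. Standard errors were taken from the log2 fold change and its F statistic. DESeq2 1.42.0, limma 3.58.1 (voom), other scalings and filters, a replicate block and leaving out each library were alternatives. Over genes with 20 or more reads, chi-square divided by its degrees of freedom was 6.99 within CU-T12-9 and 2.42 within DMSO, above sampling noise, so no library was treated as a repeat deposit of another. This does not show that the libraries are independent cultures. The common biological coefficient of variation was 5.0%. Promoter sequences are from RefSeq (GRCh38.p14) and matched 5 of the 8 members, and transcript lengths and overlaps are from GENCODE 29 (GRCh38), another build than that of the counts. Named genes were the 8 members and from each list mainly those with the largest change, those against the majority and those whose role is described. IFITM1, IFI6, XAF1, GBP4, GBP5, CIITA, NLRC5, EP300, TCF4 and CLEC10A were chosen after their values were seen. Some listed genes are not reported here by name. The members and lists were chosen with earlier results of these data known.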

Additional observations from a re-analysis of the deposited data

How the results depend on the processing

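All 5 rises, the fall of IRF8 and the lack of a call for IRF1 held under DESeq2, limma-voom, DESeq2 size factors, no filter and a 1 CPM filter, as they did with library totals alone and upper quartile scaling, both chosen after seeing the data. They were also the same without any 1 library, but those fits take their spread from the group that keeps 2 libraries and assume that the lone library varies like it. The call of IRF3, not its size, was lost without either DMSO library (log2 fold change -0.22 without the first and -0.21 without the second), so that 1 to 2 members were lower over the leave-one-out fits. Tested against a fold of 2 (edgeR glmTreat), 1 member was higher and 0 were lower, against 1013 and 778 of all genes. At an unadjusted p under 0.05 that test gave 2 higher and 0 lower members, and all genes were not counted at that threshold. DESeq2 without a minimum fold, at an adjusted p under 0.05, gave 5 higher and 2 lower members. It called 3604 of all genes higher and 3677 lower, among 16682 with an adjusted p. Over all alternatives the log2 fold change of IRF7 ran between 1.45 and 1.68, that of IRF9 between 1.17 and 1.91, that of IRF4 between 0.42 and 0.60 and that of IRF3 between -0.24 and -0.14. No scaling moved the median of all genes by more than 0.0273. Same-numbered libraries did not deviate together (correlation 0.00795), and with the replicate number as a block 5 members were higher and 2 lower, and 4488 and 4655 of all genes. Only 2 libraries a group, and 38 to 160 reads for IRF9, limit precision.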

Other observations

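Of 16 genes listed as neighbours of the IRF loci, 14 were tested, 6 being higher and 5 lower. Over all tested genes 65.2% were called, so these calls do not set the neighbours apart. Beside IRF9, the meiotic cohesin gene REC8 rose by 1.53 on the log2 scale (SE 0.19), to 5.10 CPM under CU-T12-9 against 1.76 CPM under DMSO, and RNF31, a subunit of the linear ubiquitin ligase, rose by 0.29. The genes listed for the IRF4 locus, EXOC2 of the exocyst and the phosphatase DUSP22, rose by 0.70 and 0.93. Near IRF5, which rose, the nuclear import gene TNPO3 fell by 0.25 and KCP rose by 1.20. Near IRF8, which fell, the respiratory chain gene COX4I1 fell by 0.24 and GSE1 rose by 0.23. Near IRF7, DEAF1 fell by 0.44 and PHRF1 did not pass at -0.14 (edgeR adjusted p = 0.0875).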
